A study of Mus musculus with 12 samples.

Results

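The nuclear factor I (NFI) genes Nfia, Nfib, Nfic and Nfix were followed across 12 Illumina BeadChip arrays of mouse medulloblastoma of the Sonic Hedgehog (SHH) subgroup. These are 4 of 30854 gene symbols in the deposited annotation. All probes carrying 1 of the 4 names were taken, with letter case ignored because 1 Nfib probe was spelled NfiB. This gave 18 of 45281 probes: 2 for Nfia, 8 for Nfib, 4 for Nfic and 4 for Nfix. Of the 18 probes 15 passed the filter on dim signal and were tested. The 3 groups compared had 4 arrays each. A1G primary and A1G metastatic were primary and metastatic tumours of mice with the genotype Math1-cre;A1G;Ptch1+/-, and Ptch1het were primary tumours of Ptch1+/- mice. With arrays grouped by title, all 12 tumours are taken to carry the Ptch1+/- allele. Math1-cre is a Cre recombinase under the control of Math1 (Atoh1), a gene of granule neuron progenitors, and the series text names ATOH1 as the driver that acts together with SHH signalling in these mice. What A1G stands for, the age of the mice and the site of the metastases are left unstated by the labels. Nor do they tie replicates to separate animals, so p-values measure the spread between these samples, which may be technical. The genotype of A1G metastatic replicates 2 and 3 is worded differently from that of replicates 1 and 4, and both were placed in the group by title.

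NFI proteins bind DNA as dimers at a palindrome built from the motif TTGGC, or at that motif alone, through a conserved amino-terminal domain. In the developing cerebellum they act in granule neurons, where they take part in axon growth, dendrite formation and the late switch to mature neuronal genes such as Gabra6. In the embryonic neural tube and forebrain Nfia and Nfib drive the onset of gliogenesis, and astrocytes and oligodendrocyte precursors also express NFI genes. SHH medulloblastoma arises from granule neuron progenitors, the cells that these factors help to mature.

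Promoter windows were read for the NFI genes because most of their probes read higher in A1G than in Ptch1het tumours. RefSeq promoters of GRCm38.p6 held 6 windows for 3 of the 4 genes, with 1 for Nfia, 1 for Nfic and 4 for Nfix; Nfib was not matched. The 250 bases before the annotated start were searched on both strands for the NFI motif TTGGC, the E-box CAGNTG that Atoh1-type factors bind, and the GLI core ACCACCC. Capitals mark matches, and the motifs did not overlap in the windows shown. Of the 4 Nfix windows the 1 with most matches is printed.
Nfia, chr4:97581693-97581942, plus strand: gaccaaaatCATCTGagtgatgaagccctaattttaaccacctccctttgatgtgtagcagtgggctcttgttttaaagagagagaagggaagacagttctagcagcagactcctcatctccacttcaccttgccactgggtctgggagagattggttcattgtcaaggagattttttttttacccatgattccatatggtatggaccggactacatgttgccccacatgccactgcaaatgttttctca
Nfic, chr10:81427174-81427423, minus strand: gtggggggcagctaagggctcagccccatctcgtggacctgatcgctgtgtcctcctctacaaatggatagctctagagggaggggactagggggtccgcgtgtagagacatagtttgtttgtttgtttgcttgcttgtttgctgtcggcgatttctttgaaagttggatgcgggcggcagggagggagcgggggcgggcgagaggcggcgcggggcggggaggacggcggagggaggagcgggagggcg
Nfix, chr8:84775829-84776078, minus strand: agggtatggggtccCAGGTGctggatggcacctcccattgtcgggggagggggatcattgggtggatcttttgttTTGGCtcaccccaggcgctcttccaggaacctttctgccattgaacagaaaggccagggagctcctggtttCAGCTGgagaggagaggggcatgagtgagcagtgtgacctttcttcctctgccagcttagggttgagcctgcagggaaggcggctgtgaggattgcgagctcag
The Nfia window held 1 E-box, the Nfic window none of the 3 motifs, and the printed Nfix window 1 NFI motif and 2 E-boxes. Of the Nfix windows not printed, 1 held 1 NFI motif and 1 E-box, and the others held none of the 3 motifs. The printed Nfix window was picked for its matches, so shares over unselected windows are no measure for it. Among 32841 promoter windows of the same length 41.5% held the NFI motif, 44.8% the E-box and 3.92% the GLI core. No NFI window held the GLI core letters. These matches describe the letters of the windows and are not shown to be binding sites.

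Values are log2 signal after background correction and normalization, and probes of a gene are numbered from the highest mean signal to the lowest. The median of an array was 7.05 on this scale. The correlation between any 2 arrays lay between 0.9125 and 0.9817 over the tested probes. Granule lineage identity was checked with a list of 12 markers, of which 8 were tested. Zic1, a zinc finger factor of the granule lineage, was high in all groups (means 14.13, 13.74 and 14.09 in A1G primary, A1G metastatic and Ptch1het tumours), as was the homeobox factor Barhl1 (12.65, 12.32 and 12.16). Levels differed among the tested members, and Zic2 (8.61, 8.17 and 8.21) and Pax6 (7.66, 7.75 and 7.52) lay nearer the array median. The probes of Atoh1 itself and of Cbln3, a mature granule cell gene, were below the array median on every array. None of the 8 granule markers was called in any comparison, beside 0.0245% to 8.8% of all probes. In metastatic tumours, markers of peripheral tissue were high: all 5 peripheral neuron markers, 4 of 5 Schwann cell markers and all 6 fibroblast markers rose against A1G primary tumours. The array means of these lists were 11.03 to 12.55, 10.69 to 11.31 and 11.18 to 11.55 in metastatic tumours, against 6.61 to 7.13, 7.58 to 7.81 and 7.83 to 9.23 in A1G primary tumours. In whole tumours, fewer cells of a type and less RNA per cell cannot be told apart.

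Nfia, a factor of granule neuron maturation and of gliogenesis, was read by 1 bright probe. Its log2 signal was 13.44, 13.23, 13.70 and 12.95 in A1G primary replicates 1 to 4, and 12.87, 12.33, 12.46 and 12.62 in Ptch1het replicates 1 to 4. In A1G metastatic tumours it was 13.37, 13.01, 12.93 and 12.75. Every A1G primary array lay above every Ptch1het array, and the metastatic arrays lay between, overlapping both. The deposited intensities separated in the same way, from 7953 to 13296 in A1G primary and from 5208 to 7568 in Ptch1het tumours. The mean was 13.33 ± 0.32 in A1G primary and 12.57 ± 0.23 in Ptch1het tumours (SD, n = 4), a log2 difference of 0.76 (SE 0.19, 95% interval 0.35 to 1.17) or 1.69-fold. It did not pass across all probes (limma adjusted p = 0.195, unadjusted p = 0.00155), and the exact two-sided permutation p was 0.0286, the smallest that 4 against 4 arrays allow. The metastatic mean of 13.01 ± 0.26 was 0.44 above Ptch1het (SE 0.19, adjusted p = 0.155) and -0.31 from A1G primary (SE 0.19, 95% interval -0.73 to 0.10, adjusted p = 0.419). Ordered by mean, Nfia ran from A1G primary through metastatic to Ptch1het, and no step of this order passed the test. The other Nfia probe was below the array median on all 12 arrays (group means 6.11 to 6.29) and was not tested. It is the 1 with a RefSeq definition in the annotation, whereas the bright probe carries the symbol alone.

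**Figure D1:**
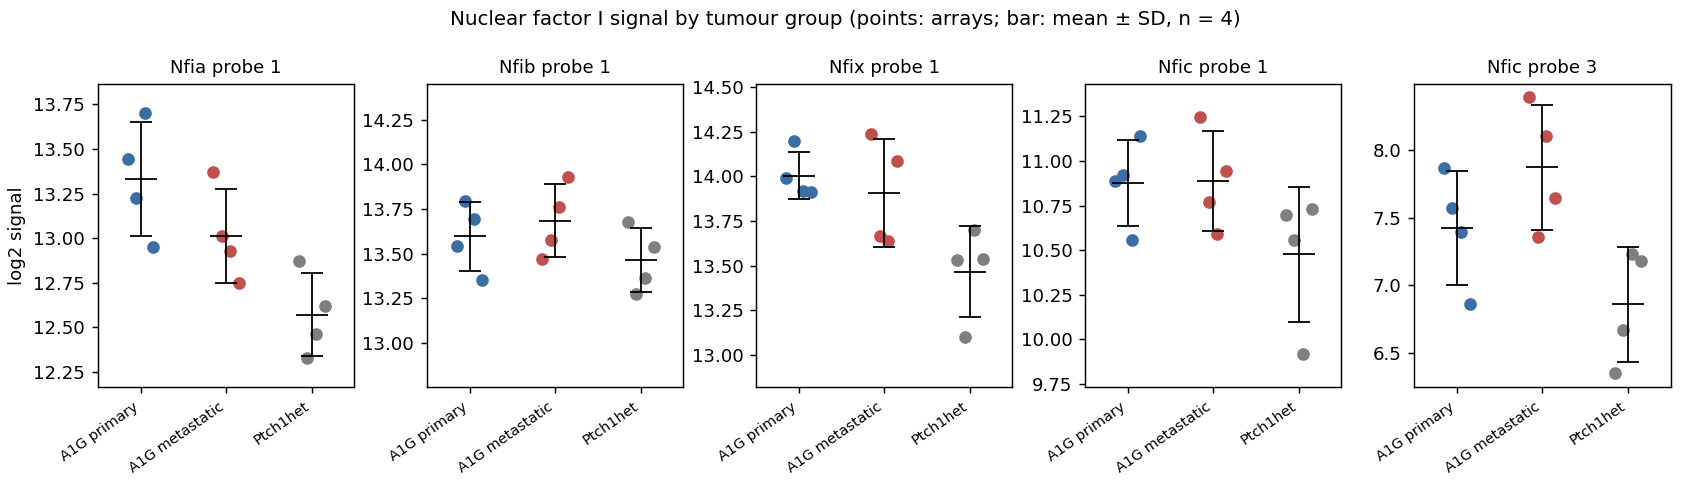
Log2 signal (y axis) of the brightest probe of each NFI gene and of Nfic probe 3 in the 3 tumour groups (x axis). Points are arrays, and bars give the mean ± SD of 4 arrays on axes of equal height but different range. Nfia and Nfix arrays of A1G primary tumours lie above all Ptch1het arrays, Nfib arrays overlap, and Nfic probe 3 separates metastatic from Ptch1het tumours.

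Nfix, which in the mouse brain promotes the differentiation of neural progenitors and of granule neurons, was covered by 4 probes on chromosome 8, all above the array median on all 12 arrays. Probe 1, annotated to transcript variant 2, read 13.99, 14.20, 13.92 and 13.91 in A1G primary replicates 1 to 4. It read 13.53, 13.10, 13.70 and 13.54 in Ptch1het replicates and 14.24, 13.67, 13.64 and 14.09 in A1G metastatic replicates. All A1G primary arrays exceeded all Ptch1het arrays, while metastatic replicates 2 and 3 fell just below the highest Ptch1het array. The difference was 0.54 between A1G primary (14.00 ± 0.13) and Ptch1het (13.47 ± 0.26; SD, n = 4), with SE 0.17, 95% interval 0.16 to 0.91 and limma adjusted p = 0.255. Probes 2 to 4, annotated to variant 3, differed by 0.35, 0.45 and 0.59 in this comparison with overlapping groups (adjusted p = 0.442, 0.422 and 0.315). Across the 12 arrays the 4 probes ran together, with pairwise Pearson r from 0.50 to 0.89 (median 0.82), given as a description since they share the gene and the arrays. Metastatic tumours were 0.44 above Ptch1het on probe 1 (SE 0.17, adjusted p = 0.129) and -0.10 from A1G primary (95% interval -0.47 to 0.28, adjusted p = 0.818).

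Nfib, a factor of granule neuron and glial development on chromosome 4, had 7 tested probes that did not give 1 pattern. Probe 1, the only 1 with a RefSeq definition, read 13.54, 13.80, 13.70 and 13.35 in A1G primary replicates 1 to 4. It read 13.47, 13.57, 13.76 and 13.93 in metastatic and 13.68, 13.27, 13.36 and 13.54 in Ptch1het replicates. The groups overlapped throughout, and the difference between A1G primary and Ptch1het was 0.13 (SE 0.15, 95% interval -0.19 to 0.46, limma adjusted p = 0.724). Probes 2, 3, 6 and 7 were higher in A1G primary tumours by 0.75, 0.68, 0.50 and 0.68 (adjusted p = 0.311, 0.33, 0.434 and 0.255). Probe 7 alone of these had groups without overlap, at 9.84 to 10.31 in A1G primary against 8.82 to 9.81 in Ptch1het tumours. Probes 4 and 5 differed by -0.14 and 0.19 (adjusted p = 0.686 and 0.65). Probes 2, 3, 6 and 7 correlated with each other at r of 0.63 to 0.87 over the 12 arrays, while probe 4 correlated with them at -0.53 to -0.09. This grouping was made after the values were seen and has no test. The annotation gives no transcript for 6 of the 7 tested probes, so which Nfib transcripts they read is not known here. Set against A1G primary tumours, metastatic tumours had a log2 difference of -0.57 on probe 7 (SE 0.22, 95% interval -1.05 to -0.10), which did not pass (adjusted p = 0.187). Probe 8 was below the array median on all 12 arrays.

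Nfic, the most widely expressed NFI gene in the mouse (chromosome 10), gave the only called probe. That call lay in metastatic against Ptch1het tumours, where 8.8% of all probes were called. The called probe, Nfic probe 3, carries the symbol alone in the annotation, without chromosome or transcript. Over the 12 arrays it correlated with Nfic probes 1 and 2 at r of 0.29 and 0.65, and with Nfix probe 4 at 0.91. Probe 3 read 8.39, 7.36, 8.10 and 7.64 in A1G metastatic replicates 1 to 4 and 6.35, 6.67, 7.24 and 7.18 in Ptch1het replicates. It read 7.87, 7.57, 7.40 and 6.86 in A1G primary replicates. Every metastatic array lay above every Ptch1het array, but the probe is dim: Ptch1het replicates 1 and 2 and A1G primary replicate 4 were below the array median, so no fold is given and the size depends on the background treatment (0.76 on the deposited values, 1.30 with a normexp offset of 16). On the scale used here the difference of 1.01 (SE 0.28, 95% interval 0.42 to 1.61; means 7.87 ± 0.46 and 6.86 ± 0.42, SD, n = 4) passed (limma adjusted p = 0.0395). The call was lost without metastatic replicate 1 (0.84, adjusted p = 0.0851), 3 (0.94, 0.0759) or 4 (1.09, 0.0634) and without Ptch1het replicate 1 (0.84, 0.0992) or 2 (0.95, 0.0801). It was also lost with array weights (0.85, 0.0757), with only the 8 arrays compared (1.01, 0.0629) and with only metastatic replicates 1 and 4 (1.16, 0.0954).

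The brighter Nfic probes, annotated to transcript variant 2, gave smaller differences. Probe 1 read 10.88, 10.92, 10.56 and 11.14 in A1G primary, 11.25, 10.77, 10.59 and 10.95 in metastatic and 10.70, 10.56, 9.92 and 10.73 in Ptch1het replicates. Ptch1het replicate 3 was the lowest of the 12, and the other Ptch1het arrays overlapped the A1G arrays. Metastatic tumours were above Ptch1het by 0.41 on probe 1 (SE 0.21, limma adjusted p = 0.219) and by 0.63 on probe 2 (SE 0.25, adjusted p = 0.133). Against A1G primary tumours they differed by 0.01 and 0.39 (adjusted p = 0.985 and 0.463), and probe 3 by 0.45 (adjusted p = 0.428). A1G primary tumours were above Ptch1het by 0.40, 0.25 and 0.56 on probes 1 to 3 (adjusted p = 0.422, 0.696 and 0.401). Probe 4, annotated to transcript variant 1, was above the array median on only 3 arrays and was not tested (group means 6.69 to 7.08). Metastatic tumours, in which probe 3 was highest, also had the high peripheral neuron, Schwann cell and fibroblast levels given above, and the array means of the same lists in Ptch1het tumours were 6.58 to 7.26, 7.51 to 7.82 and 8.19 to 8.86. Skeletal muscle markers were also higher in metastatic than in Ptch1het tumours (4 of 4 tested members called, median 3.98; array means 7.82 to 13.30 against 7.17 to 8.06). Oligodendrocyte markers had a median of 2.45 (array means of the list 10.07 to 13.18 against 7.70 to 10.50). Of 5 tested members 1 was called, the myelin gene Mbp. It differed by 4.14 on its brightest probe and by -0.01 to 2.49 on its other probes. The part of these cells in the Nfic signal was not tested.

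Between metastatic and primary A1G tumours, 0 of 15 NFI probes were called, against 4.82% of the 24443 probes tested (1179). At an unadjusted p under 0.05 there was 1 NFI probe, Nfib probe 7, against 17.8% of all probes. No NFI probe separated these groups without overlap, against 13.4% of all probes. Differences were above 0 for 5 of 15 NFI probes, against 38.5% of all probes. The median NFI difference was -0.10 (range -0.57 to 0.45), beside -0.08 over all probes. For the leading probes the 95% interval ended at -0.73 and 0.10 for Nfia, -0.24 and 0.42 for Nfib, -0.47 and 0.28 for Nfix and -0.43 and 0.46 for Nfic, so a 2-fold change in either direction lay outside each of these 4. It lay inside for Nfib probe 7 (-1.05 to -0.10) and Nfic probe 3 (-0.15 to 1.05). The peripheral neuron, Schwann cell and fibroblast lists had medians of 5.16, 3.60 and 2.81 in the same comparison.

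**Figure D2:**
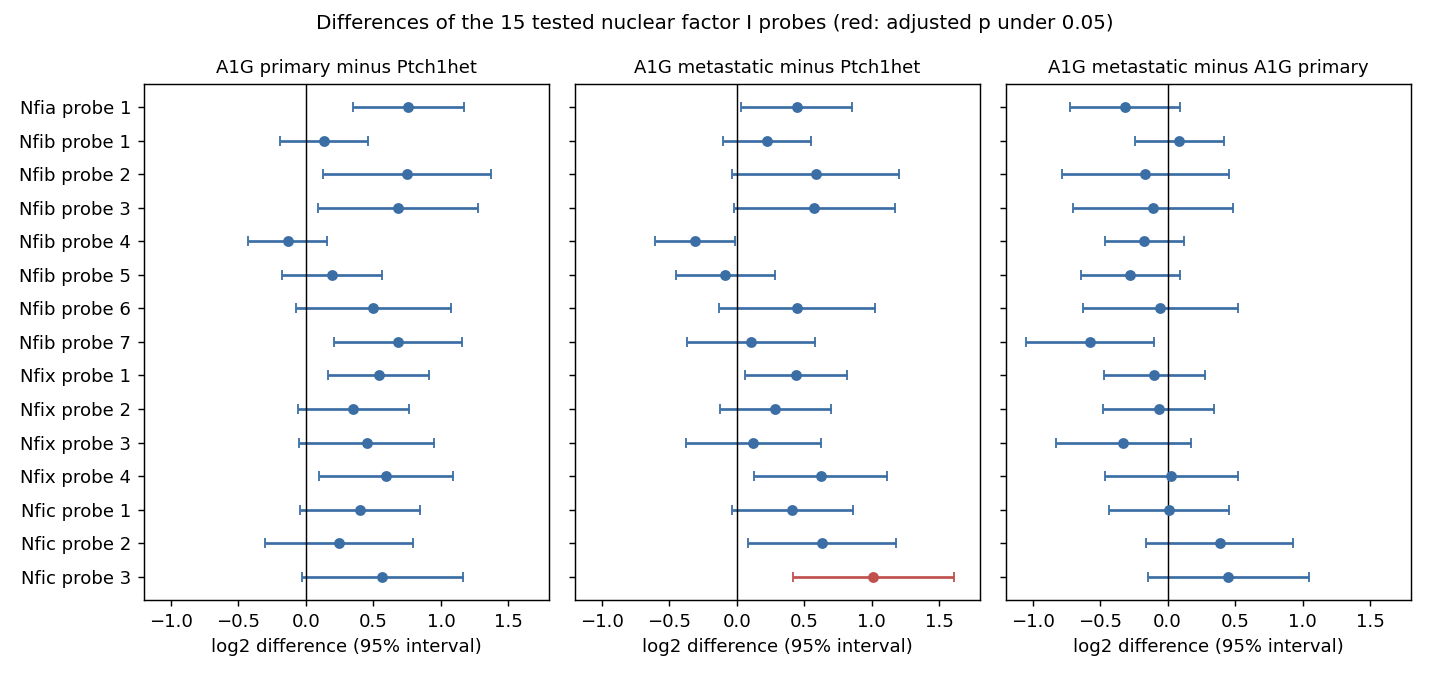
Log2 differences (x axis) of the 15 tested NFI probes (y axis) in the 3 comparisons, with 95% intervals of the model. Red marks the probe with an adjusted p under 0.05, Nfic probe 3 in metastatic against Ptch1het tumours; 14 of 15 probes lie above 0 in A1G primary against Ptch1het tumours, and 13 of 15 in metastatic against Ptch1het tumours.

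Between A1G primary and Ptch1het tumours, 0 of 15 NFI probes were called by limma, against 0.0245% of all probes (6 probes). Without Ptch1het replicate 4 the count over all probes was 43, and without Ptch1het replicate 2 it was 10, with 0 NFI probes among either. The NFI differences nevertheless lay mostly on 1 side. The differences were above 0 for 14 of 15 probes, with Nfib probe 4 as the exception, against 46.7% of all probes. The median was 0.50 (range -0.14 to 0.76), beside -0.02 over all probes. At an unadjusted p under 0.05, 6 of 15 were higher, against 6.47% of all probes higher, and 0 were lower, with no share over all probes beside it. The 6 were Nfia probe 1, Nfib probes 2, 3 and 7, and Nfix probes 1 and 4. Groups did not overlap, with A1G primary higher, for 3 of 15 (Nfia probe 1, Nfib probe 7 and Nfix probe 1), against 2.71% of all probes. Probes of 1 gene share their target and the 4 genes share the arrays, so these counts are not independent observations, and no test was made over them.

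Metastatic A1G tumours set against Ptch1het tumours differ in genotype and in site at once, and share the Ptch1het arrays with the comparison before. Here 1 of 15 NFI probes was called, against 8.8% of all probes (2150), so the share called was near the background. The differences were above 0 for 13 of 15 probes, against 39.3% of all probes, with a median of 0.44 beside -0.09. At an unadjusted p under 0.05, 5 of 15 were higher, against 11.6%, and 1 was lower, Nfib probe 4, with no share of all probes lower beside it. The count of 5 was 1 without metastatic replicate 1 or Ptch1het replicate 2, 3 without metastatic replicate 4, and 8 without metastatic replicate 3 or with only metastatic replicates 1 and 4. Nfic probe 3 alone had groups without overlap, against 6.99%. The exceptions were Nfib probe 4 at -0.31 (SE 0.14, adjusted p = 0.166) and Nfib probe 5 at -0.08 (SE 0.17, adjusted p = 0.784). Set beside each other, the Nfia, Nfib, Nfix and Nfic leading probes were above Ptch1het by 0.76, 0.13, 0.54 and 0.40 in A1G primary tumours and by 0.44, 0.22, 0.44 and 0.41 in metastatic tumours. Without Ptch1het replicate 3 the Nfic values were 0.21 and 0.23. With both A1G groups averaged, a comparison added after the data were seen, 0 of 15 probes were called, against 2.84% of all probes. In that average the smallest adjusted p was that of Nfia (0.60, SE 0.16, adjusted p = 0.0669), followed by Nfic probe 3 (0.79, SE 0.24, 0.0896) and Nfix probe 1 (0.49, SE 0.15, 0.0926). At an unadjusted p under 0.05, 7 of 15 probes were higher in it, against 10.1% of all probes, and 14 of 15 differences were above 0, against 43.8%. The count of 7 was 4 without Ptch1het replicate 2 and 12 with only metastatic replicates 1 and 4.

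Ptch1het replicate 2 was the lowest of the 12 arrays for 11 of the 15 NFI probes, and it was the lowest for 11.1% of all tested probes. The highest value lay in A1G metastatic replicate 1 for 6 of 15 probes, against 7.08% of all tested probes. It lay in A1G primary replicates 2 and 3 for 3 probes each (6.81% and 7.12% of all). A1G metastatic replicate 4 was highest for 2 probes (4.99% of all) and Ptch1het replicate 2 for 1 (14.7% of all). Without Ptch1het replicate 2, 14 of 15 differences between A1G primary and Ptch1het tumours were still above 0, with a median of 0.42, but 3 of 15 rather than 6 had an unadjusted p under 0.05. That count was also 3 without Ptch1het replicate 1, and 5 to 8 without any other single array of these groups. Without Ptch1het replicate 2 the leading probes of Nfia and Nfix were higher in A1G primary tumours by 0.68 (adjusted p = 0.333) and 0.42 (adjusted p = 0.458).

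**Figure D3:**
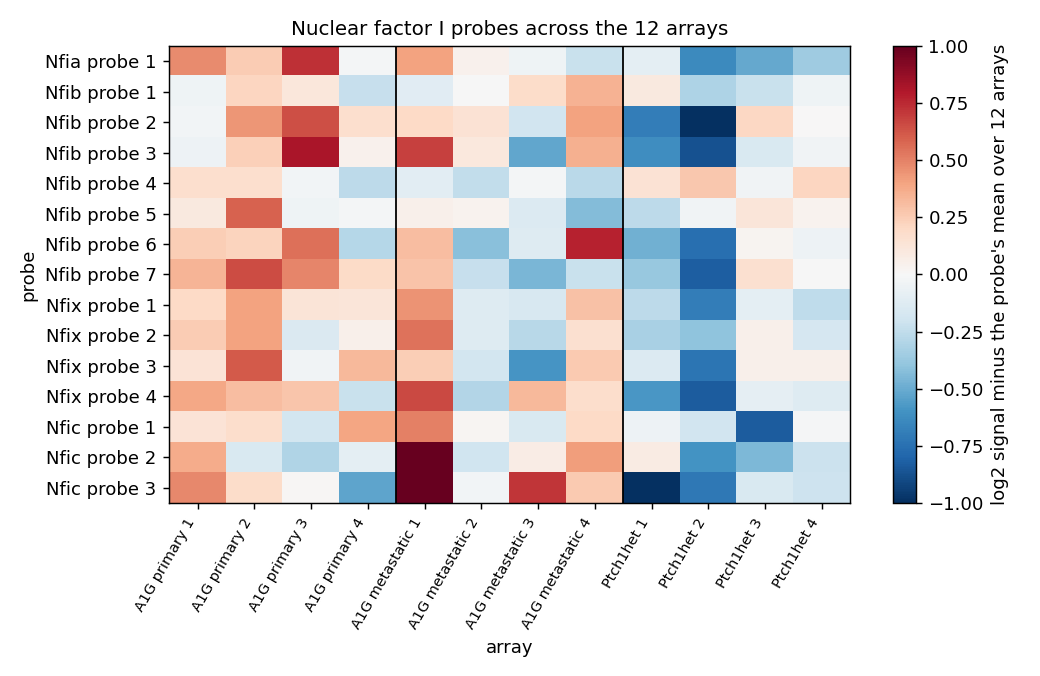
Log2 signal of the 15 tested NFI probes (rows) on the 12 arrays (columns), each as the difference from that probe's mean over all arrays; colours end at 1 and -1, and values beyond are drawn at the end. The column of Ptch1het replicate 2 is blue in nearly all rows, that of A1G metastatic replicate 1 is mostly red, and Nfib probe 4 runs against Nfib probes 2 and 3.

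Of genes under NFI control in granule neurons, 0 of 5 tested were called between A1G primary and Ptch1het tumours. Over all probes 0.0245% were called there, so the absence of calls says little about this list. Of 7 listed genes 5 were tested, and the median difference was -0.11 over the brightest probe of each. Gabra6, a GABA receptor subunit of mature granule cells, was dim in most tumours (means 6.81, 6.14 and 6.38 in A1G primary, metastatic and Ptch1het) and reached 8.54 in 1 A1G primary array. Grin2c, an NMDA receptor subunit of mature granule cells, was also not tested (means 6.90, 6.86 and 7.01). Wnt7a, a secreted signal of granule neurons, ranged from 6.68 to 10.99 in A1G primary and from 6.92 to 9.98 in Ptch1het tumours, and the spread within groups exceeded the difference of 0.36 (adjusted p = 0.882). The adhesion molecule Cntn2 differed by 0.46 (adjusted p = 0.804) and the Ets factor Etv1 by -0.11 (adjusted p = 0.928), while the other Etv1 probes differed by 0.56 and 0.67. The cadherin Cdh2 differed by -0.11 (adjusted p = 0.836) and by 0.21 on its other probe. Efnb1, an ephrin ligand, was the only member called, 1 of 5 tested between metastatic and A1G primary tumours, against 4.82% of all probes. It was 9.13 ± 0.13 in A1G primary and 9.74 ± 0.28 in metastatic tumours (SD, n = 4), a difference of 0.61 (limma adjusted p = 0.0389). With replicate number as a block over all 12 arrays, Ptch1het included, its limma adjusted p was 0.0595. Without single arrays the adjusted p of Efnb1 was up to 0.131 (without metastatic replicate 2), and the call held only without metastatic replicate 4 (0.0131).

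Among 10 glial and progenitor genes tied to NFI, the calls also lay in metastatic tumours. Slc1a3, the astrocyte and Bergmann glia glutamate transporter, fell from 14.56 ± 0.39 in A1G primary to 13.24 ± 0.40 in metastatic tumours (SD, n = 4), a log2 difference of -1.32 (limma adjusted p = 0.0425), and lower than in Ptch1het tumours by a log2 difference of -1.19 (adjusted p = 0.0471). Insc, an adaptor of spindle orientation, was higher by 1.19 (adjusted p = 0.0397) and 1.08 (adjusted p = 0.0429) in the same comparisons. Its probe was dim in A1G primary and Ptch1het tumours (means 7.05 and 7.16, with an array median of 7.05), so the size depends on the background treatment. Against A1G primary tumours the Insc difference was 0.94 on the deposited values and 1.43 with a normexp offset of 16. Apcdd1, an inhibitor of Wnt signalling, was lower in metastatic than in Ptch1het tumours, with a log2 difference of -0.78 (adjusted p = 0.0427), while its other probe differed by -0.45. These calls did not hold when most single arrays were left out, with adjusted p up to 0.137 for Slc1a3 (without A1G primary replicate 2 or metastatic replicate 2) and 0.105 for Insc (without metastatic replicate 2) against A1G primary. Against Ptch1het, adjusted p reached 0.136, 0.107 and 0.132 for Slc1a3, Insc and Apcdd1, each without metastatic replicate 2. With only metastatic replicates 1 and 4, none of these calls or that of Efnb1 held (adjusted p = 0.12 to 0.416). Gfap, the astrocyte filament and a classical NFI target, differed by 0.51 between A1G primary and Ptch1het (adjusted p = 0.681). The Notch effector Hes1 differed by -0.70 (adjusted p = 0.422), and the methyltransferase Ezh2 by 0.29 on its brightest probe and -0.51 on the other. The list median in that comparison was 0.01 with 0 of 10 called, against 0.0245% of all probes.

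Of 6 regulators and partners of NFI, 4 were tested and 0 were called in any comparison, beside 0.0245% to 8.8% of all probes. Sox9, also on the glial list, which induces Nfia in the chick and mouse spinal cord, was at 14.59 ± 0.19, 14.30 ± 0.37 and 14.48 ± 0.22 in A1G primary, metastatic and Ptch1het tumours (SD, n = 4). Ski, a corepressor that works with NFI proteins, was above Ptch1het by 0.59 in A1G primary (limma adjusted p = 0.323) and by 0.53 in metastatic tumours (adjusted p = 0.165). Zeb1, a repressor of granule neuron maturation, differed by -0.07 on its brightest probe and 0.88 on the other in A1G primary against Ptch1het tumours, so its probes did not agree. Nfatc4, which in mouse granule neurons holds back NFI binding, differed by -0.34 in that comparison (adjusted p = 0.665). Rest was below the array median on every array.

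Astrocyte and oligodendrocyte precursor markers, cells in which NFI genes are also active, had medians of 0.36 and 0.31 in A1G primary against Ptch1het tumours. In each list 0 of 7 were called, against 0.0245% of all probes. Array means of these lists were 9.88 to 11.17 and 10.45 to 10.93 in A1G primary tumours, and 9.34 to 11.35 and 9.73 to 10.42 in Ptch1het tumours. The array means of the precursor list did not overlap, but its members differed: Gpr17 and Sox10 were above Ptch1het by 2.12 and 1.32, and the other 5 lay between -0.20 and 0.41. Granule lineage markers had a median of 0.43 there, with array means of 10.21 to 11.06 against 9.81 to 10.93. In metastatic tumours the array means of the precursor list were 9.23 to 10.12, and 4 of 7 members were called lower than in A1G primary tumours. Over all probes 4.82% were called there in either direction. Against Ptch1het tumours, Ptprz1 was called lower (-1.79, limma adjusted p = 0.0327) and Sox10 higher (1.26, adjusted p = 0.0301). The part of these cells in the NFI signal was not tested.

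Genes with the most similar pattern over the 12 arrays were named for the leading probe of each NFI gene, as a description over points that share arrays and groups. For Nfia these were Igf1r, the IGF1 receptor (r = 0.9269, and 0.8193 with group means removed), Gapvd1 (0.8953), Akap8 (0.8879), 9130020K20Rik (0.8655) and Mgat4b (0.8394). For Nfix these were Irs2, the insulin receptor substrate (0.9328, and 0.9432 with group means removed), Ctdsp2 (0.9176), Ammecr1l (0.9039), the corepressor Sin3a (0.9005) and Gnas (0.8892). For Nfic these were Mfhas1 (0.9394), Tob2 (0.9092), Golga2 (0.8889), Dlgap2 (0.8763) and Atp10a (0.8663). The highest r for Nfib was lower, with Camta1 (0.8054), B3gat3 (0.793), Ppia (0.7786), Txndc15 (0.7781) and Rhpn1 (0.7726). The 4 leading NFI probes correlated with each other at r of 0.19 to 0.68, with Nfia and Nfix the closest pair.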

How the data were processed

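Total RNA of 12 tumours was labelled as biotinylated cRNA and read on Illumina BeadChips, per the labels' protocols. Deposited was 1 linear intensity per probe and array, already normalized between arrays by the authors, as nearly equal array medians show, with no background subtracted. How they normalized is not stated by labels or headers. In a further deposited table, 24 columns of array values are named for chips and positions (2 chips of 6 arrays) that match no label. Those columns were not used, only its annotation. Which array lay on which chip is therefore not known, and chip could not be tested as a batch.

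With limma 3.58.1 in R 4.3.3, intensities were corrected for background (normexp, offset 50), brought to equal quantiles and put on the log2 scale. Probes above their array's median on at least 4 of 12 arrays were kept (24443 of 45281, 54.0%). One linear model with 3 groups was fitted per probe (lmFit, eBayes, 9 residual and 3.93 prior degrees of freedom), with Benjamini-Hochberg adjustment over all kept probes and calls at 0.05. In simulated data with 200 of 24443 probes changed, 72.0% to 75.0% of 2-fold and 97.0% to 100.0% of 4-fold changes were recovered over the 3 comparisons, with 2 to 12 false calls. The simulated noise was drawn independently for each probe and array, and changes under 2-fold were not simulated. These rates therefore do not give the power for smaller differences such as most of those of the NFI probes. Array number limits precision.

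Every NFI probe is reported. In each list, 1 probe a gene (the brightest) stands for it, and called members plus those of smallest p were named. Genes of like pattern were the 5 of highest Pearson r. Members and lists were chosen with earlier results of these data known. Reported values come from the unpaired model. Replicate numbers were checked as pairs: after removal of group means, same-numbered A1G primary and metastatic arrays correlated at 0.17 to 0.45, over 0.1 in all 4 pairs. Those of A1G primary and Ptch1het (-0.02 to 0.33) and of metastatic and Ptch1het (-0.06 to 0.10) did not in every pair. Arrays of different numbers were not correlated as a reference, so the check cannot tell whether any numbers pair samples. The replicate block was run as an alternative over all 12 arrays. Background correction, filter, unit of the fit, array weights, arrays left out and a replicate block were tried as alternatives.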

Additional observations from a re-analysis of the deposited data

Results flagged for a closer look

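Within each group of 4 arrays, the NFI probes were searched for an array far from the others. Among 54 probe and group combinations 1 was found, where chance gives about 1 in 20. The dim Nfia probe 2, which was below the array median on all 12 arrays and was not tested, read 6.35 in A1G primary replicate 2 while the other A1G primary arrays lay between 6.02 and 6.05.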

How the results depend on the processing

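No NFI probe was called between A1G metastatic and primary tumours, or between A1G primary and Ptch1het tumours, under any of the 18 and 17 alternatives run, and the replicate block left both counts at 0. Between metastatic and Ptch1het tumours the count of 1 became 0 with a stricter filter (above the median on 12 of 12 arrays) and with 1 probe a gene, by which Nfic probe 3 was not in the fit. It became 0 too with array weights, with only the 8 arrays compared and with only metastatic replicates 1 and 4, and the replicate block raised it to 2 (Nfic probes 2 and 3); leaving out single arrays gave 0 to 1. For both A1G groups averaged, the replicate block raised the count from 0 to 1 (Nfia, adjusted p = 0.0479). The block ties arrays of the same number across all groups, Ptch1het included, which is not established, so these gained calls rest on an unsupported pairing. Differences of 3 leading probes between metastatic and primary tumours changed sign, none called. Nfib was -0.17 with the mean of its probes, which takes in 2 further probes named by a synonym. Nfix was 0.16 with only metastatic replicates 1 and 4, and Nfic ranged from -0.11 to 0.11 without single arrays. Of 292 values of the leading probes 285 kept direction and side of the threshold; Nfic passed between metastatic and Ptch1het tumours on the gene mean (0.69, adjusted p = 0.0362). The causes were not tested. The replicate block changed the calls of Efnb1, given with its result, and of Apcdd1 against Ptch1het (0.0521). The count of all probes called between metastatic and primary tumours was 532 with the stricter filter, 533 with only metastatic replicates 1 and 4, 1902 with array weights and 783 without metastatic replicate 2, against 1179. Between A1G primary and Ptch1het tumours it was 3 with the stricter filter, against 6. Between metastatic and Ptch1het tumours it was 1280 with 8 arrays, 733 with only metastatic replicates 1 and 4, 1031 without metastatic replicate 2 and 1292 without metastatic replicate 4, against 2150. For both A1G groups averaged it was 251 to 908 without single arrays, against 695. Dim signal limits Nfic probe 3 and the 3 untested probes.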

Other observations

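A pair of probes of the array carry the older symbol E030026I10Rik, which RefSeq lists as a synonym of Nfib, and were not among the NFI probes by symbol. Both were bright. The probe with the higher mean in A1G primary tumours read 13.81 to 14.41 in them, 13.60 to 13.99 in metastatic and 13.40 to 13.82 in Ptch1het tumours, a log2 difference of 0.38 between A1G primary and Ptch1het (SE 0.16, limma adjusted p = 0.353). The other read 13.81 to 14.12, 13.50 to 14.10 and 13.67 to 14.17, with a difference of 0.07 (SE 0.16, adjusted p = 0.878). Like the probes annotated as Nfib, they did not give 1 pattern.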
